A study of Homo sapiens with 4 samples.

Results

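The 39 HOX genes of the 4 clusters were followed through 4 cultures of human lung squamous cancer cells. They were every symbol made of HOX, a cluster letter from A to D and a number, without antisense transcripts, out of 26364 symbols in the deposited values. HOXA has 11 members, HOXB 10, HOXC 9 and HOXD 9. Each culture gave 1 library of total RNA, prepared by a 3′-end method that reads near the end of each transcript. The parental line, EBC-1, is a lung cancer line with an amplified MET gene, which encodes the receptor tyrosine kinase for hepatocyte growth factor, and it was used at passages 35 to 37. EBC-CR1, EBC-CR2 and EBC-CR3 descend from EBC-1 and were selected for growth in stepwise higher concentrations of capmatinib, a MET kinase inhibitor. Selection reached 1.5 µmol/L for EBC-CR1, 2.2 µmol/L for EBC-CR2 and 2.4 µmol/L for EBC-CR3, and all 3 were afterwards maintained in 1 µmol/L. EBC-CR1 was at passages 64 to 66, and EBC-CR2 and EBC-CR3 were at passages 81 to 83. Resistance, drug exposure and passage number therefore differ from EBC-1 together and cannot be told apart, and all 4 cultures share the MET-amplified origin. The sources used here do not say whether capmatinib was present at harvest or whether each resistant line grew from 1 clone.

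HOX genes encode homeodomain transcription factors that set position along the head-to-tail axis of the embryo. Their order along each chromosome follows the order in which they act, with low-numbered (anterior) genes at one end of a cluster and high-numbered (posterior) genes at the other. Genes with the same number in different clusters, called paralogs, descend from a shared ancestor and fall into 13 groups. HOX proteins often bind DNA together with PBX and MEIS proteins, Polycomb complexes keep silent HOX genes closed, and trithorax complexes keep active ones open. Retinoic acid activates anterior HOX genes in development. In the lung, HOXA5 and HOXB5 take part in airway branching. HOXA lies on the short arm of chromosome 7, HOXB on chromosome 17, HOXC on chromosome 12 and HOXD on chromosome 2.

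Promoter sequence is shown for HOXA2, whose level separated EBC-CR2 from the other resistant lines, for HOXA3, the HOX gene with the highest level in every line, and for HOXC4, which EBC-CR2 held near its EBC-1 level while the other resistant lines did not. RefSeq windows were found for 20 of the 39 members. Each sequence gives the 250 bases before the annotated start, 5′ to 3′ on the gene's own strand, from RefSeq on build GRCh38.p14. The submitters' processing notes name build hg19 for the files, so these coordinates locate the sequences and not the reads. Capitals mark matches on either strand to the PBX-HOX pattern TGATNNAT, to the TATA box TATAAA and to the CCAAT box CCAAT, and no capitals overlap between patterns. HOXA2 lies on the minus strand at chr7:27102684-27102933, HOXA3 on the minus strand at chr7:27152584-27152833, and HOXC4 on the plus strand at chr12:54016638-54016887.
HOXA2: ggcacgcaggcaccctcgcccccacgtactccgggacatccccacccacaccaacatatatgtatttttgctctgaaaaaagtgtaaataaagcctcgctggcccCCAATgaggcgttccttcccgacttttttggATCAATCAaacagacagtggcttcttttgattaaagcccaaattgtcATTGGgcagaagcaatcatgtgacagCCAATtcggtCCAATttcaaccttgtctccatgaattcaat
HOXA3: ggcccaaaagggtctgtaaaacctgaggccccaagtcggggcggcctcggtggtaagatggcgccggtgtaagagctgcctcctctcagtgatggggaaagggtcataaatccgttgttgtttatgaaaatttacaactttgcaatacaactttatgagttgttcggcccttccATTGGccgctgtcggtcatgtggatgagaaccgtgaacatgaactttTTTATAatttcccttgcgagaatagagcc
HOXC4: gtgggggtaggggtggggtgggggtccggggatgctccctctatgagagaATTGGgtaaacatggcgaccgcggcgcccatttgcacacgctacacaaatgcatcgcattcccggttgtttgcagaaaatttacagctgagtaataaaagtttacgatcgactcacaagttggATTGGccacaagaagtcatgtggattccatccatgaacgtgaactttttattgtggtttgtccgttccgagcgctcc
The HOXA3 window belongs to the outermost of 7 annotated starts, so it is 1 of several possible promoters of the gene. HOXC5 has the same window as HOXC4, because the gene models of HOXC4, HOXC5 and HOXC6 share their start. The PBX-HOX pattern was found in the HOXA2 window alone among these 3, and it occurs in 6.49% of 34943 promoter windows of all genes. A TATA box match, found in 10.8% of windows, was present in HOXA3 on the opposite strand. CCAAT matches, found in 32.0% of windows, were present in all 3. HOXA3 and HOXC4 are not paralogs of 1 group, but the number in their names does not place these windows. The gene model of HOXA3 overlaps HOXA4, HOXA5 and HOXA6, and that of HOXC4 shares its start with HOXC6. Between the HOXA3 and HOXC4 windows, 142 of 241 aligned columns (58.9%) were identical. The same measure was 53.7% for HOXA2 with HOXC4 and 50.2% for HOXA2 with HOXA3. The longest run shared by HOXA3 and HOXC4, GAAAATTTACA, began 125 and 126 bases before the respective starts. It was found in 10 of 34943 windows (0.0286%), and it was singled out after the alignment was seen. These matches describe letters and were not tested for binding.

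Levels are given as log2(x + 1), where x is the authors' normalized value in units, or directly in units where said. A 3′-end read counts a transcript once whatever its length, so units of different genes were not divided by length. The estimated depth was 21.3 to 30.4 M reads per library, and 3 reads, taken as the limit below which a gene listed at 0 cannot be told from a low one, corresponded to 2.47 to 3.53 units. Where 4 values stand together they run from EBC-1 through EBC-CR1 and EBC-CR2 to EBC-CR3, and 3 values leave out EBC-1. With 1 library per line, a level has no replicate error. The 95% intervals below are exact binomial counting intervals of the log2 ratio from estimated reads, and they cover counting error only. The headers of the value columns number the lines otherwise than the sample records do: EBC-CR1 carries the heading EBC-R3, and EBC-CR3 carries EBC-R1. Names here follow the sample records, and if the headers are right the EBC-CR1 and EBC-CR3 values exchange throughout. All 6 epithelial markers were above 10 units in every line, with summed levels of 63173 to 100590 units. Of 8 squamous markers only SOX2 and TP63 reached 10 units in any line, TP63 was listed at 0 in EBC-1, and KRT5, KRT14, KRT6A and PKP1 were listed at 0 in all 4 lines. Blood markers (5 genes, among them the globin genes HBB and HBA2) summed to 19031 units in EBC-CR1, then 27.75 in EBC-CR2 and 0 in EBC-1 and EBC-CR3, and their part in the EBC-CR1 values was not tested. The 10 fibroblast, endothelial and leukocyte markers summed to 477 to 2263 units, with CDH5 and CD3E listed at 0 in every line. Most of that sum was CD68, at 479.5, 356, 1923.5 and 585.8 units, and LAPTM5, at 910.2, 13.75 and 253.5 units and listed at 0 in EBC-CR3. Both are leukocyte markers, as are CD3E and PTPRC. PTPRC was listed at 0 in EBC-1, EBC-CR2 and EBC-CR3 and stayed under 10 units in EBC-CR1. The part of these markers in the HOX values was not tested. The 5 alveolar markers summed to 14 to 77.75 units.

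In total, 23 of the 39 members reached 10 units in at least 1 line, and these were compared. They were 8 HOXA, 6 HOXB and 8 HOXC genes and HOXD4. The other 16 reached at most 9 units, and 7 of them were listed at 0 in all 4 lines (HOXB1, HOXB13, HOXC12, HOXD9, HOXD10, HOXD12 and HOXD13). Members at 10 units or more numbered 20 in EBC-1, 14 in EBC-CR1, then 18 in EBC-CR2 and 12 in EBC-CR3. Members at 100 units or more numbered 5, 5, 4 and 5. The lines thus differed in how many HOX genes passed 10 units, while the number at 100 units or more was nearly the same. HOXA3 led in each line, and it was followed by HOXC6 in EBC-1 and EBC-CR2, by HOXB9 in EBC-CR1 and by HOXA5 in EBC-CR3. In bulk RNA, fewer cells with a transcript and less transcript per cell cannot be told apart.

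**Figure D1:**
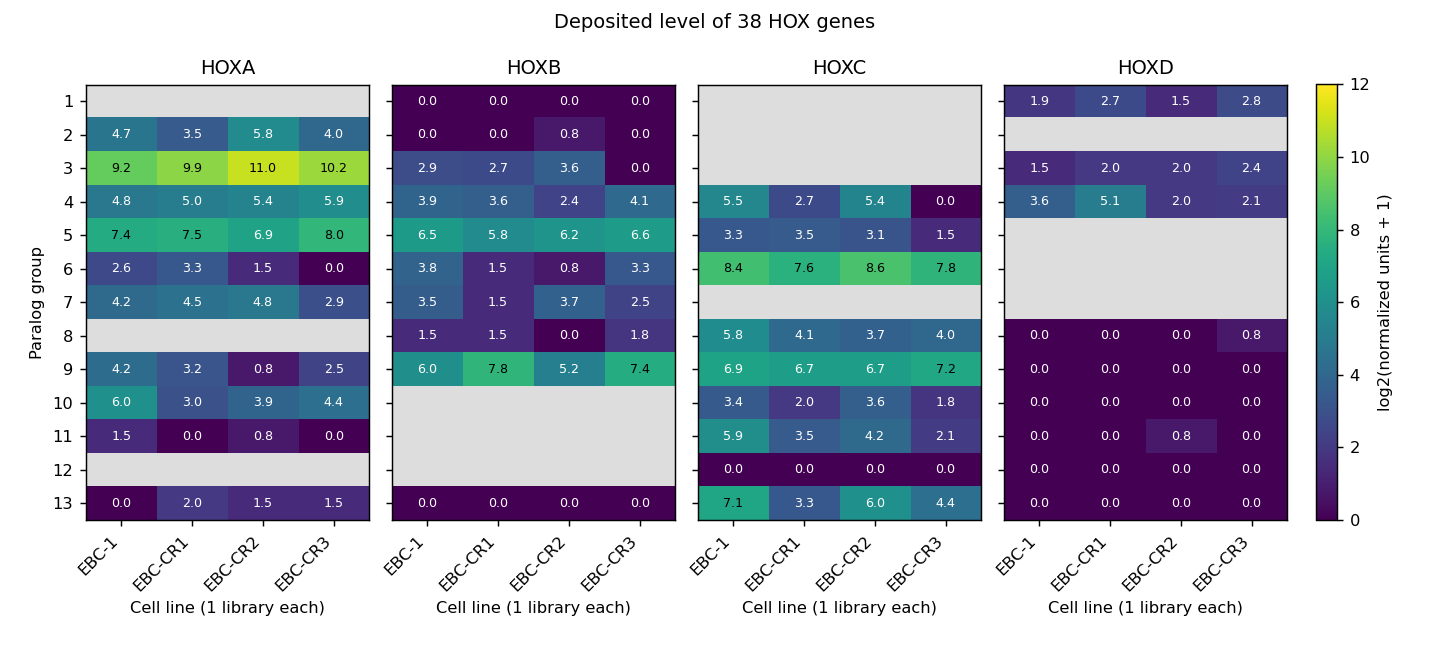
Deposited level of 38 HOX genes as log2(units + 1), printed and coloured in each cell, with 1 panel per cluster, paralog groups 1 to 13 down the axis, the 4 lines (1 library each) across, and grey where no gene is shown. HOXA3 is the highest gene in each line at 9.18 to 11.01, HOXD is dark throughout, and HOXA10, HOXC8, HOXC11 and HOXC13 have their highest value in EBC-1.

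Against EBC-1, more HOX genes were lower than higher in each resistant line. A gene was called where its log2(x + 1) values differed by at least 2-fold. In EBC-CR1, 2 of 23 members were higher and 11 were lower, beside 13.6% higher and 14.3% lower among all 14749 genes compared. In EBC-CR2, 3 members were higher and 8 lower, beside 16.9% and 18.4% of all genes. In EBC-CR3, 3 members were higher and 13 lower, beside 16.1% and 16.4% of all genes. The lower members made up 47.8%, 34.8% and 56.5% of the 23. Among them HOXA9 reached 10 units in EBC-1 alone, so it was compared through that library and could only lie below it. The same holds for HOXB6, counted as lower in EBC-CR1 and EBC-CR2.

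Most HOX genes are low, and low genes pass a 2-fold limit more often. Among the 3710 genes whose highest level was under 100 units, 26.7%, 28.2% and 28.1% were called lower in the resistant lines, in the same order, and 21.8%, 23.6% and 24.6% higher. Where the counting interval was also required to leave out 0, the lower members numbered 8, 6 and 10 and the higher ones 2, 3 and 3. The median log2 ratio of the 23 members was -0.74 in EBC-CR1, then -0.28 in EBC-CR2 and -1.26 in EBC-CR3, beside -0.06, -0.06 and -0.07 over all genes. HOXB3 and HOXC4 were listed at 0 in EBC-CR3. With both set to the 3-read limit, the EBC-CR3 median was -1.06 and 12 members were lower. The 3 comparisons share the EBC-1 library, so each EBC-1 value enters all 3 ratios.

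HOXA9, HOXA10, HOXC8, HOXC11 and HOXC13 were at least 2-fold below EBC-1 in all 3 resistant lines. For HOXA9 in EBC-CR1 the counting interval included 0. These 5 are 21.7% of the 23 members, beside 5.33% of all genes and 9.84% of genes whose highest level was under 100 units. No member was at least 2-fold above EBC-1 in all 3 lines, beside 6.79% and 9.51%. Without regard to size, 7 members lay below EBC-1 in all 3 lines (the same 5 with HOXB6 and HOXC4), beside 31.6% of all genes. HOXA3 and HOXA4 lay above EBC-1 in all 3, beside 25.8%. Of the 7, HOXA9 and HOXB6 reached 10 units in EBC-1 alone, so they were compared through that library and could only lie below it. The share of members below EBC-1 in every line was near that of all genes. The share past 2-fold, which counts HOXA9, was higher.

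**Figure D2:**
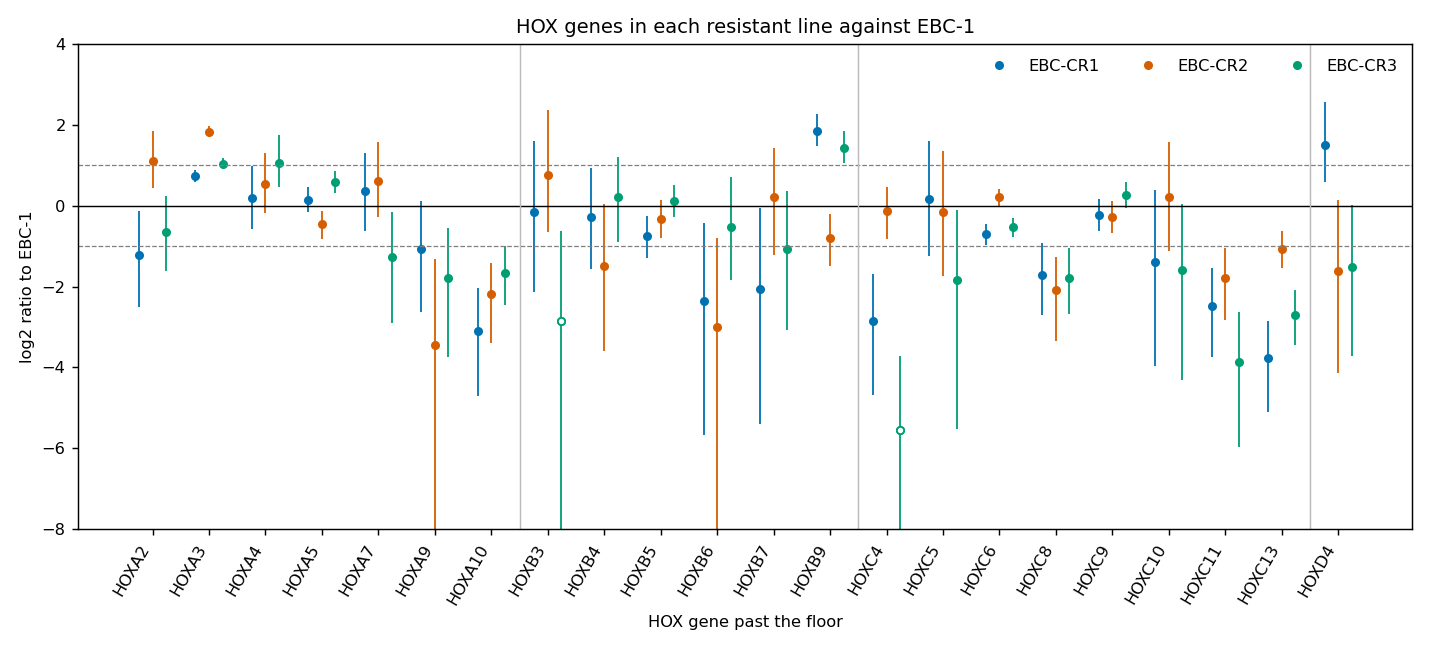
Log2 ratio to EBC-1 (vertical axis) of 22 compared HOX genes (horizontal axis, in cluster order) in each resistant line, with points for the ratio of log2(x + 1) values, open where the gene was listed at 0, bars for the 95% counting interval of 1 library against 1 library, drawn down to -8, and dashed lines at 2-fold. HOXA10, HOXC8, HOXC11 and HOXC13 lie below 0 in all 3 lines with bars that leave out 0, and HOXB9 lies above 0 in EBC-CR1 and EBC-CR3 and below it in EBC-CR2.

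A test of the 3 resistant lines together against EBC-1 called no HOX gene. With limma (trended variance, 2 residual degrees of freedom, Benjamini-Hochberg adjustment over 14749 genes), 27 genes or 0.183% had an adjusted p under 0.05, and the adjusted p of the HOX genes ran from 0.469 to 0.981. At an unadjusted p under 0.05 there were 2 HOX genes of 23, beside 10.6% of all genes. They were HOXA10, with a log2 fold change of -2.32 ± 0.89 (SE, adjusted p = 0.469 by limma), and HOXC8, with -1.87 ± 0.72 (SE, adjusted p = 0.469 by limma). The test assumes that the EBC-1 library varies as the resistant lines do, and, since nothing says that the lines were selected separately, a p-value reflects only how far these 3 lines spread. Values below are accordingly descriptions of these libraries.

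HOXA3 carried most of the signal of the HOXA cluster and was higher in every resistant line. This gene patterns the third pharyngeal arch, from which the thymus and parathyroid form. HOXA3 stood at 578 units in EBC-1 against 959.8 in EBC-CR1, then 2057 in EBC-CR2 and 1190 in EBC-CR3. EBC-CR2 was highest and all 3 resistant lines exceeded EBC-1. The log2 ratios were 0.73 (interval 0.58 to 0.88), 1.83 (1.70 to 1.96) and 1.04 (0.91 to 1.18), and the limma log2 fold change was 1.20 ± 0.52 (SE, adjusted p = 0.514). The gene model of HOXA3 overlaps those of HOXA4, HOXA5 and HOXA6 and of the antisense genes HOXA-AS2 and HOXA-AS3. Since the sources used here do not give strand handling, reads in the overlaps cannot be assigned with certainty.

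HOXA2 set EBC-CR2 apart. HOXA2, which gives the second pharyngeal arch its identity, stood at log2 levels of 4.67, 3.46, 5.79 and 4.02. It was highest in EBC-CR2 and lowest in EBC-CR1. The log2 ratios to EBC-1 were -1.21 (-2.50 to -0.13) and 1.12 (0.44 to 1.84) in EBC-CR1 and EBC-CR2, and -0.65 (-1.62 to 0.24) in EBC-CR3, where the interval included 0. The highest of these values, 54.25 units in EBC-CR2, is a modest count, and the intervals are wide for that reason. RefSeq shows no gene model overlapping HOXA2.

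The middle of the HOXA cluster was mostly within 2-fold of EBC-1. HOXA4 was at 27.25 units in EBC-1, 31.5 in EBC-CR1, then 40.25 in EBC-CR2 and 57.25 in EBC-CR3, and only the last value was past 2-fold, with a log2 ratio of 1.04 (0.45 to 1.74). HOXA5, a regulator of lung and airway development, was at 164.5, 182.8, 119 and 246.8 units. It was lowest in EBC-CR2 and highest in EBC-CR3, with log2 ratios to EBC-1 of -0.46 (-0.83 to -0.12) and 0.58 (0.32 to 0.86), neither of them past 2-fold. HOXA7 was at 17, 22.25, 26.5 and 6.5 units, and EBC-CR3 alone was past 2-fold, with a log2 ratio of -1.26 (-2.91 to -0.15). HOXA6, below the limit for comparison, reached at most 9 units.

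HOXA9 and HOXA10, the posterior HOXA genes that were compared, were lower in all 3 resistant lines. HOXA10, which patterns the uterus and the limb, was at 65 units in EBC-1, 6.75 in EBC-CR1, then 13.5 in EBC-CR2 and 19.75 in EBC-CR3. Every resistant value was under 20 units, well short of the EBC-1 value. The log2 ratios were -3.09 (-4.72 to -2.04), -2.19 (-3.39 to -1.41) and -1.67 (-2.45 to -1.0). HOXA9, best known from blood progenitors and leukaemia, was at 18, 8, 0.75 and 4.5 units, with log2 ratios of -1.08 (-2.63 to 0.12), -3.44 (-9.31 to -1.32) and -1.79 (-3.74 to -0.55). It reached 10 units in EBC-1 alone and could only lie below that library, and its EBC-CR2 value lies under the 3-read limit. HOXA9 and the readthrough gene HOXA10-HOXA9 had identical values in all 4 lines, so they cannot be told apart and are 1 observation. The antisense gene HOXA10-AS overlaps HOXA10 and had log2 levels of 4.92 in EBC-1, 2.00 in EBC-CR1, then 2.00 in EBC-CR2 and 1.81 in EBC-CR3. It reached 10 units in EBC-1 alone, so it could only lie below that library, and its resistant values lie under the 3-read limit. Reads of HOXA10 and HOXA10-AS cannot be told apart without strand. HOXA11 and HOXA13 reached no more than 9 units in any line. HOXA13 was listed at 0 in EBC-1 and had 3, 1.75 and 1.75 units in the resistant lines, each under the 3-read limit of its library.

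The HOXA genes differed widely in how they stood to the ratios of their chromosome arm. Over the 242 other genes of the short arm of chromosome 7 that were compared, the median log2 ratio to EBC-1 was 0.48 in EBC-CR1, then 0.48 in EBC-CR2 and 0.53 in EBC-CR3, and 72.7%, 68.6% and 73.1% of them were above 0. Over the 8 HOXA genes it was -0.46, 0.58 and -0.96, with 50%, 62.5% and 37.5% above 0. The 242 other genes include noncoding and readthrough genes of the HOXA cluster, among them HOXA10-HOXA9, whose values are identical to those of HOXA9. HOXA3 lay above the arm's median and HOXA9 and HOXA10 below it in all 3 lines, and in EBC-CR1 HOXA3 was the only HOXA gene above it. HOXA9 was compared through EBC-1 alone, so its ratios could only be below 0. The 9 compared genes that flank the cluster had medians of 0.51, 0.27 and 0.29. Of these, CREB5, a transcription factor of the CREB family, had log2 ratios of 1.73, -0.34 and 1.89, and SKAP2, the nearest listed gene on the anterior side, had 0.58, 1.19 and 0.73. HIBADH, on the posterior side, had 1.48, 1.23 and 0.11. The median HOXA ratio minus the arm's median averaged -0.78 with an SD of 0.81 over the 3 lines, so the gap was smaller than its spread. The mean of the HOXA medians was -0.28, and it turned to 0.43 when only genes reaching 50 units were kept. Copy number was not measured here.

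**Figure D3:**
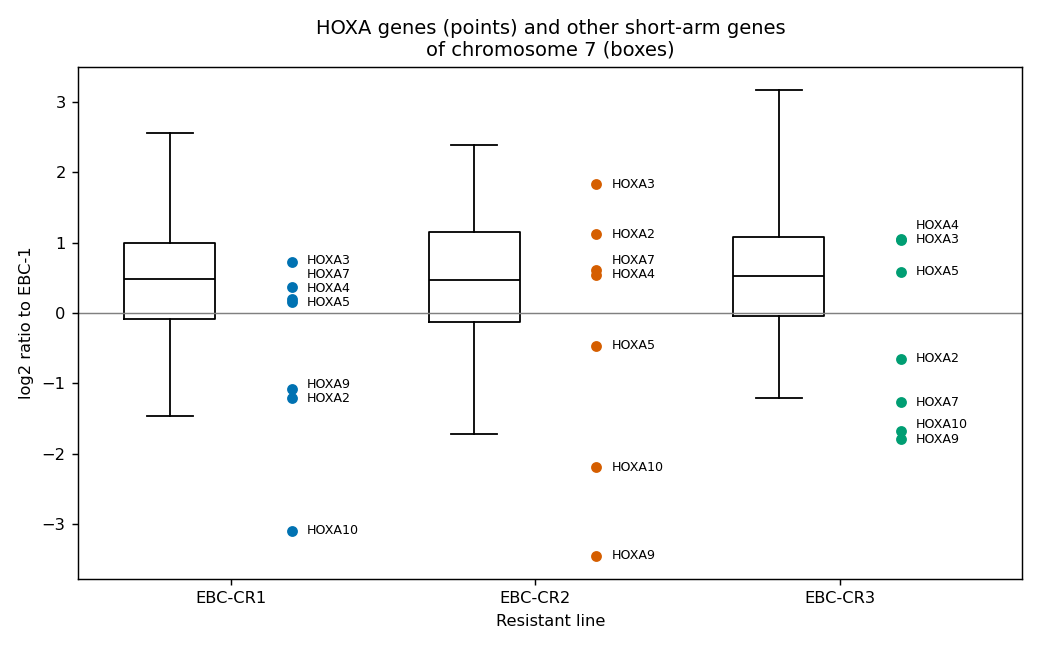
Log2 ratio to EBC-1 in each resistant line of 7 compared HOXA genes (points, with labels spread vertically so that they can be read) and of the 242 other compared genes of the short arm of chromosome 7 (boxes from the lower to the upper quartile with the median, whiskers from the 5th to the 95th percentile). The boxes have medians of 0.48, 0.48 and 0.53, HOXA3 lies above them in all 3 lines, and HOXA9 and HOXA10 lie below them in all 3. The boxes include noncoding and readthrough genes of the HOXA cluster, and HOXA9 was compared through EBC-1 alone.

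Among the 3 clusters with more than 1 compared gene, HOXC had the lowest median ratio in EBC-CR1 and EBC-CR3, and HOXB had it in EBC-CR2. Of its 8 compared genes, 5 were at least 2-fold lower in EBC-CR1, then 3 in EBC-CR2 and 6 in EBC-CR3, and none was 2-fold higher in any of them. The median log2 ratio over the 8 genes was -1.56, -0.22 and -1.81, beside -0.51, -0.56 and -0.20 over the 6 compared HOXB genes. For HOXA the counts of lower genes were 4, 2 and 4 of 8, and for HOXB they were 2, 2 and 2 of 6, the last of which is 1 with HOXB3 set to the 3-read limit. The HOXA counts include HOXA9 in each line, and the HOXB counts include HOXB6 in EBC-CR1 and EBC-CR2. Both reached 10 units in EBC-1 alone and could only lie below it, and both enter the medians. The shares called lower were 14.3%, 18.4% and 16.4% over all genes and 26.7%, 28.2% and 28.1% over low genes.

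HOXC8, HOXC11 and HOXC13, the HOXC genes at least 2-fold lower in every line, differed in how far each line was from EBC-1. HOXC13, which controls keratin genes of hair and nail, was at 134.2 units in EBC-1, 9 in EBC-CR1, then 63 in EBC-CR2 and 19.75 in EBC-CR3. EBC-CR2 kept the most of it. The log2 ratios were -3.76 (-5.09 to -2.84), -1.08 (-1.55 to -0.63) and -2.70 (-3.45 to -2.09), and the limma log2 fold change was -2.51 ± 1.16 (SE, adjusted p = 0.533). HOXC11, whose gene model overlaps that of the noncoding gene HOTAIR, was at 60.75, 10, 17 and 3.25 units, with log2 ratios of -2.49 (-3.73 to -1.54), -1.78 (-2.83 to -1.05) and -3.86 (-5.97 to -2.64). HOXC8, which patterns thoracic vertebrae and the motor neurons of the forelimb, was at 55.25, 16, 12.25 and 15.25 units. Its 3 resistant values lay close together, with log2 ratios of -1.73 (-2.71 to -0.92), -2.09 (-3.36 to -1.26) and -1.79 (-2.69 to -1.04). RefSeq shows no gene model overlapping HOXC8.

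HOXC4 split the resistant lines. It was at 45.75 units in EBC-1 and 41.5 in EBC-CR2, but at 5.5 in EBC-CR1, and EBC-CR3 had it listed at 0. EBC-CR2 thus stood with EBC-1, with a log2 ratio of -0.14 (-0.82 to 0.47), while EBC-CR1 was lower by a log2 ratio of -2.85 (-4.67 to -1.69). HOXC6, which shares its start with HOXC4, kept a high level throughout, at 325.8, 199.5, 375.8 and 225.8 units. Its log2 ratios were -0.70 (-0.98 to -0.45), 0.21 (-0.01 to 0.42) and -0.53 (-0.76 to -0.30), so it was lower in the same 2 lines by a smaller amount. HOXC5, between them in the shared unit, reached at most 10 units, and its log2 ratio passed 2-fold in EBC-CR3 alone, at -1.83 (-5.52 to -0.11). Reads in the parts that the 3 gene models share cannot be assigned with certainty.

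HOXC9, which represses anterior HOX genes in thoracic motor neurons, was the steadiest of the cluster, at 122.2, 104.5, 100.8 and 146.5 units. Its log2 ratios of -0.22, -0.28 and 0.26 had intervals that spanned 0 in all 3 lines. HOXC10 was at 9.5, 3, 11.25 and 2.5 units, past 2-fold in EBC-CR1 and EBC-CR3 with log2 ratios of -1.39 and -1.58 whose intervals included 0.

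In HOXB, the posterior gene HOXB9 was higher in EBC-CR1 and EBC-CR3 and lower in EBC-CR2. HOXB9 acts in thoracic skeletal patterning and in mammary development. It was at 62.75 units in EBC-1, 227 in EBC-CR1, then 35.5 in EBC-CR2 and 171 in EBC-CR3. EBC-CR1 and EBC-CR3 lay well above the other lines. The log2 ratios to EBC-1 were 1.84 (1.47 to 2.26), -0.80 (-1.49 to -0.20) and 1.43 (1.06 to 1.85), the limma log2 fold change was 0.82 ± 1.14 (SE, adjusted p = 0.827), and no RefSeq gene model overlaps HOXB9. The blood markers summed to 19031 units in EBC-CR1 and to 0 in EBC-CR3, and a relation of them to HOXB9 was not tested.

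HOXB5, the cluster's leading gene in EBC-1 and EBC-CR2, was at 90.75, 53.75, 72.5 and 99 units, with no ratio past 2-fold. HOXB6 was at 13, 1.75, 0.75 and 8.75 units, with log2 ratios of -2.35 (-5.67 to -0.42) and -3.0 (-8.88 to -0.80) in EBC-CR1 and EBC-CR2. It reached 10 units in EBC-1 alone and could only lie below that library. HOXB7 was at 10.5, 1.75, 12.25 and 4.5 units, with log2 ratios of -2.06 (-5.40 to -0.06), 0.20 (-1.21 to 1.44) and -1.06 (-3.07 to 0.35). The values of 1.75 and 0.75 units lie under the 3-read limit. HOXB4 was at 13.75, 11.25, 4.25 and 16 units. HOXB3, which overlaps HOXB4, was at 6.25, 5.5 and 11.25 units and was listed at 0 in EBC-CR3.

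HOXD held little signal. HOXD4 alone reached 10 units, at 11.25 in EBC-1, 33.5 in EBC-CR1, then 3 in EBC-CR2 and 3.25 in EBC-CR3. EBC-CR1 was the highest line, with a log2 ratio of 1.49 (0.58 to 2.58), and the ratios of -1.61 (-4.15 to 0.13) and -1.53 (-3.72 to 0.02) in the other lines had intervals that included 0. Beside this low cluster, the antisense gene HAGLR at the anterior end of HOXD had log2 levels of 4.88 in EBC-1, 8.27 in EBC-CR1, then 8.15 in EBC-CR2 and 9.0 in EBC-CR3. It was at 28.5 units in EBC-1 and at 282.2 to 509.2 units in the resistant lines. Its log2 ratios were 3.38 (2.90 to 3.97), 3.26 (2.78 to 3.85) and 4.11 (3.65 to 4.68), and its limma log2 fold change was 3.59 ± 0.53 (SE, adjusted p = 0.140). HOXD1, whose gene model it overlaps, had log2 levels of 1.91, 2.70, 1.46 and 2.75.

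Grouped by position across clusters, the posterior genes had lower ratios than those of the middle groups. The 7 compared genes of paralog groups 9 to 13 had median log2 ratios of -1.39 in EBC-CR1, then -1.08 in EBC-CR2 and -1.67 in EBC-CR3, and 5, 4 and 5 of them were at least 2-fold lower. The others were HOXB9, higher in EBC-CR1 and EBC-CR3, HOXC9, which was within 2-fold in each line, and in EBC-CR2 also HOXC10, with a log2 ratio of 0.22. The lower genes include HOXA9 in each line, which was compared through EBC-1 alone. Over all genes 14.3%, 18.4% and 16.4% were called lower, and over genes whose highest level was under 100 units 26.7%, 28.2% and 28.1%. The 12 genes of groups 4 to 8 had medians of -0.49, -0.24 and -0.80. Groups 1 to 3 are not given here, so no trend along the whole cluster can be read from these medians. Genes of 1 cluster share regulatory DNA and are not independent of one another.

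The resistant lines also differed from each other, most often between EBC-CR2 and EBC-CR3. EBC-CR2 had 7 of 23 members at least 2-fold above EBC-CR1 and 4 below it, beside 15.9% and 16.6% of all genes and 24.6% and 25.3% of genes whose highest level was under 100 units. It had 10 members above EBC-CR3 and 5 below it, beside 13.5% and 14.4% of all genes and 24.6% and 25.9% of the low genes. EBC-CR3 had 4 members above EBC-CR1 and 6 below it, beside 8.08% and 7.64% of all genes and 19.1% and 19.4% of the low genes. With HOXB3 and HOXC4 set to the 3-read limit, the 6 became 4. The 10 members by which EBC-CR2 exceeded EBC-CR3 are 43.5% of the 23, and they include HOXB3 and HOXC10. Both reached 10 units in EBC-CR2 alone, so they were compared through that library and the other lines could only lie below it. HOXC10 is also among the 7 members above EBC-CR1. HOXC5, among the 6 members lower in EBC-CR3 than in EBC-CR1, reached 10 units in EBC-CR1 alone.

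EBC-CR2 exceeded EBC-CR1 by a log2 ratio of 2.33 for HOXA2, 1.10 for HOXA3, 2.71 for HOXC4 and 2.68 for HOXC13. It was below EBC-CR1 by -2.64 for HOXB9 and -3.11 for HOXD4. Against EBC-CR3, EBC-CR2 was higher by 1.77 for HOXA2, 2.08 for HOXC11 and 1.62 for HOXC13, and HOXB9 was lower by a log2 ratio of -2.24. EBC-CR2 thus had more HOXA2, HOXA3 and HOXC13 and less HOXB9 than either of the other resistant lines. EBC-CR3 differed from EBC-CR1 by 1.42 for HOXA10, -1.63 for HOXA7 and -3.02 for HOXD4. EBC-CR2 shared its passage range with EBC-CR3, and not with EBC-CR1.

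Summed over members, the clusters moved apart. The HOXA sum came to 917.2 units in EBC-1 against 1239.8 in EBC-CR1, then 2351 in EBC-CR2 and 1546.2 in EBC-CR3, which gave linear ratios to EBC-1 of 1.35 (1.24 to 1.47), 2.56 (2.38 to 2.76) and 1.69 (1.56 to 1.82). HOXA3 made up 63.0% to 87.5% of that sum. Without it the HOXA sum was 339.2, 280, 294 and 356.2 units, so nearly all of the excess over EBC-1 was in HOXA3.

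The HOXC sum was 762.2, 357.5, 629.2 and 414.8 units, with ratios of 0.469 (0.411 to 0.535), 0.826 (0.740 to 0.918) and 0.544 (0.485 to 0.609). HOXC was below EBC-1 in all 3 lines and least so in EBC-CR2. The HOXB sum was 198.8, 302.8, 137.2 and 301.8 units, and HOXB9 took the place of HOXB5 as the leading gene in EBC-CR1 and EBC-CR3. The HOXD sum stayed between 8.5 and 42 units. As a share of all HOX signal, HOXA went from 48.4% in EBC-1 to 63.8%, 75.2% and 67.9%, and HOXC from 40.2% to 18.4%, 20.1% and 18.2%. Over all 39 genes the sum was 1894, 1942, 3126 and 2277 units, which gave ratios to EBC-1 of 1.03 (0.962 to 1.09), 1.65 (1.56 to 1.75) and 1.20 (1.14 to 1.27), the first with an interval that includes 1. Without HOXA3 the ratios were 0.746, 0.812 and 0.826. The total is set largely by HOXA3, whose share of it was 30.5%, 49.4%, 65.8% and 52.3%.

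**Figure D4:**
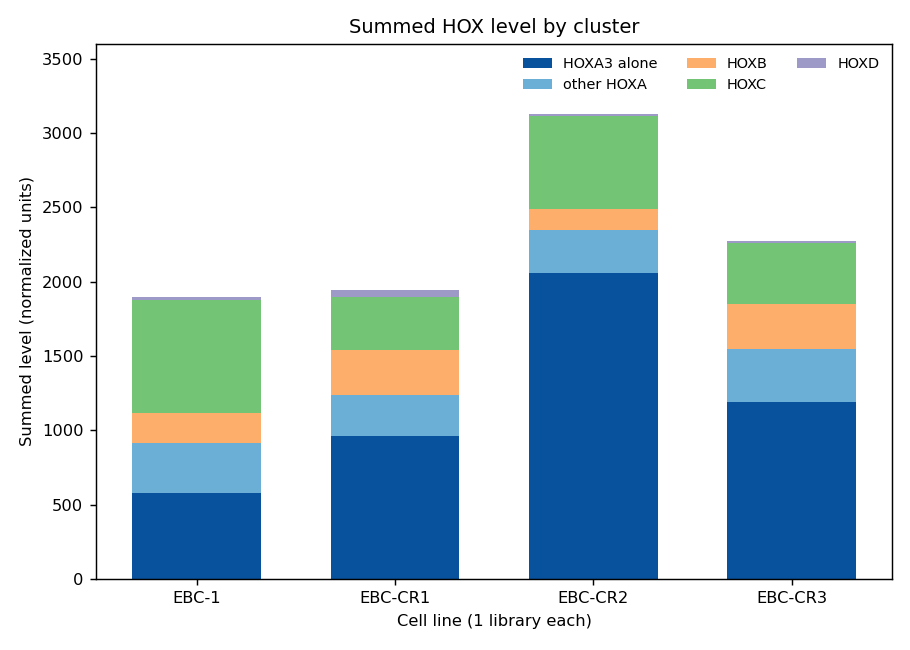
Summed level of the HOX genes in each line (1 library each, so no error bars), in normalized units on a linear axis from 0, as stacked bars with HOXA3 apart from the other HOXA genes. HOXA3 goes from 578 units in EBC-1 to 2057 in EBC-CR2, the other HOXA genes stay between 280 and 356.2 units, and HOXC is smaller in each resistant line, down to 357.5 units in EBC-CR1.

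Of 25 listed noncoding and readthrough genes of the clusters, 9 reached 10 units. In the resistant lines 3, 2 and 2 of them were at least 2-fold higher and 3, 2 and 4 lower. Over all genes, beside which the counts of this and the further lists stand, 13.6%, 16.9% and 16.1% were higher and 14.3%, 18.4% and 16.4% lower. HAGLR, HOXA10-AS and HOXA10-HOXA9 are described above. HOXC13-AS, which overlaps HOXC13, had log2 levels of 4.51 in EBC-1 and 5.02 in EBC-CR2. In the other lines, those in which HOXC13 was also lowest, it was listed at 0. HOTAIRM1, a noncoding gene at the anterior end of HOXA, is named for its high level after its values were seen. Its log2 levels were 9.62, 10.68, 10.34 and 10.35, and unlike HOXA2 it was above EBC-1 in all 3 resistant lines.

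Most cofactors of HOX proteins were present in every line. Of 9 listed PBX, MEIS and PKNOX genes, 8 reached 10 units, and 1, 2 and 2 of them were at least 2-fold higher and 0, 1 and 0 lower in the resistant lines. PBX3 had log2 levels of 10.29, 11.32, 9.97 and 11.62, highest in the 2 lines in which HOXB9 was highest, and a relation between them was not tested. PBX4 was lower at 5.27, 4.44, 4.07 and 4.63, and MEIS3 was listed at 0 in all lines but EBC-CR2, where it was 4.17. MEIS3 was thus compared through EBC-CR2 alone, where it is counted as higher. MEIS2 stayed high at 9.39, 9.22, 10.38 and 9.47.

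All 20 listed Polycomb genes reached 10 units, and 0, 0 and 3 of them were at least 2-fold higher and 4, 8 and 5 lower in the resistant lines, beside 14.3%, 18.4% and 16.4% of all genes lower. Their median log2 ratio was 0.03, -0.71 and 0.02. The genes with the largest mean ratio were all lower. PHC2, a PRC1 subunit, had log2 levels of 12.08, 10.60, 10.56 and 10.42. CBX8 and CBX2, PRC1 subunits that bind methylated histone H3, had levels of 6.83, 5.52, 4.78 and 5.79 and of 8.96, 8.10, 6.87 and 7.76. EZH2, the methyltransferase of PRC2, had 11.55, 10.23, 9.94 and 10.90. A relation of these levels to those of HOX genes was not tested.

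Among 11 trithorax genes, all past the limit, 0, 1 and 1 were at least 2-fold higher and 0, 0 and 1 lower. ASH2L, a core subunit of the methyltransferase complexes, had log2 levels of 10.45, 9.67, 9.70 and 9.39, and the histone demethylase KDM6B had 7.83, 8.80, 8.71 and 8.48. Of 18 genes of retinoic acid handling and of the CDX family, 12 reached 10 units, and 2, 5 and 5 were at least 2-fold higher and 2, 1 and 3 lower. The genes counted as higher in EBC-CR3 include CYP26A1, RARB, ALDH1A1 and ALDH1A2. These reached 10 units in resistant lines alone, with at most 0.75 units in EBC-1, so they could not be called lower. ALDH1A3, which makes retinoic acid, had log2 levels of 9.58, 12.10, 13.91 and 12.34, so that EBC-CR2 was highest. CYP26A1, which breaks retinoic acid down and is itself induced by it, was listed at 0 in EBC-1 and had 4.60, 2.39 and 4.17 in the resistant lines. RARB, a retinoic acid receptor, was listed at 0 in EBC-1 and EBC-CR1 and had 3.29 and 5.54 in EBC-CR2 and EBC-CR3. CRABP2, a carrier of retinoic acid to the nucleus, was lower in each resistant line, at 10.55, 8.02, 7.37 and 8.48. A relation of the levels of these retinoic acid genes to those of HOX genes was not tested. With limma none of the 112 genes tested from all these lists had an adjusted p under 0.05, and the lowest was that of HAGLR.

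Genes beside HOXC had median log2 ratios nearer 0 than the compared HOXC genes, whose medians were -1.56, -0.22 and -1.81. The 9 compared neighbours of HOXC had median log2 ratios of -0.22, -0.09 and -0.29, with 1, 2 and 2 at least 2-fold higher and 1, 1 and 3 lower. The erythroid factor NFE2 among them had log2 levels of 4.51, 6.29, 8.12 and 6.12, and the heterochromatin protein gene CBX5 had 12.92, 11.53, 11.23 and 11.79. The 9 neighbours of HOXB had medians of -0.43, -0.46 and -0.19, with 0, 1 and 1 higher and 1, 2 and 0 lower. Of these, IGF2BP1 had log2 levels of 0.81 in EBC-1, 2.39 in EBC-CR2 and 3.91 in EBC-CR3 and was listed at 0 in EBC-CR1, and COPZ2 had 4.94, 3.75, 3.29 and 4.44. The 8 compared neighbours of HOXD had medians of -0.09, -0.54 and -0.33, with 1, 1 and 0 higher and 0, 1 and 0 lower. No test of the difference between a cluster and its neighbours was made, since each line is 1 library. Clusters and neighbours were not matched for level, and low genes pass a 2-fold limit more often.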

How the data were processed

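RNA was measured in 4 cultures, 1 library each, made with the Lexogen QuantSeq 3′-end kit per the labels' protocols. Per the submitters' processing notes, the tools were Bowtie2 and edgeR and the build hg19. Not given in the sources used here are versions, roles, annotation and strand handling. The authors deposited log2 values for 26364 symbols. After undoing log2(x + 1), 100% of values under 500 units lay on multiples of 0.25 (within 0.0025), and sorted libraries differed by at most 0.81, so quantile normalization was inferred, which hides any global shift. These values are not counts, and no count model was run.

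What 1 read is worth (0.824, 1.16, 1.18 and 0.915 units) was estimated from the lowest 40 distinct values. Steps were unevenly filled, so estimated reads are approximate.

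The 14749 genes with 10 units or more in some library were compared as differences of log2(x + 1), which understates low genes. The threshold was 2-fold for pairs of libraries, with no p-value, and an adjusted p of 0.05 in limma 3.58.1 (R 4.3.3). Python with numpy 2.4.6, pandas 2.3.3 and scipy 1.17.1 did the rest. Scripts were tested on simulated data. Alternatives were a pseudocount of 5, no floor, a floor of 50 units, centring, exchanged EBC-CR1 and EBC-CR3, no trend, and each line left out. The HOXA sum without HOXA3, the call by counting interval, the comparison with low genes and the 3-read limit for genes listed at 0 were chosen after seeing the data.

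Compared HOX genes are named except 1, which is counted but not reported here, and of each other list up to 4 genes with the largest mean ratio. Members and lists were chosen with earlier results of these data known. Gene overlap, chromosome and arm order came from RefSeq GRCh38.p14, used for names and neighbours.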

Additional observations from a re-analysis of the deposited data

Results flagged for a closer look

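The 3 genes below had a log2 ratio to EBC-1 above 0 in 1 resistant line and below 0 in another, each beyond counting error. The difference between lines was not tested, because each line is 1 library. HOXA2 was above EBC-1 in EBC-CR2 and below it in EBC-CR1, with 2.33 between the highest and the lowest log2 ratio. HOXB9 was below EBC-1 in EBC-CR2 and above it in EBC-CR1 and EBC-CR3, with a gap of 2.64. HOXA5 was below EBC-1 in EBC-CR2 and above it in EBC-CR3, with a gap of 1.05. EBC-CR2 was 1 of the 2 lines in each case.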

How the results depend on the processing

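Of the alternatives, a floor of 50 units moved the HOX counts most, since it keeps 12 members in place of 23. Lower members were then 5 in place of 11 in EBC-CR1, 4 in place of 8 in EBC-CR2 and 4 in place of 13 in EBC-CR3, and higher members in EBC-CR1 were 1 in place of 2. Between resistant lines the same floor gave 3 higher and 1 lower for EBC-CR2 against EBC-CR1 (7 and 4 before), 3 and 2 for EBC-CR2 against EBC-CR3 (10 and 5), and 2 and 1 for EBC-CR3 against EBC-CR1 (4 and 6). The share of all genes called at this floor was not computed, so these counts stand without a background. With no floor, EBC-CR2 had 7 members lower than EBC-CR1. A pseudocount of 5 left 7 lower in EBC-CR1 and 2 higher in EBC-CR3 against EBC-CR1. The mean over the 3 lines of the HOX median was -0.76, but the ratio of sums gave 0.34, since HOXA3 dominates the sum. For HOXA, -0.28 became 0.43 with the floor of 50 and 0.85 by sums. For HOXB, -0.42 became 0.25 and 0.23. HOXC, at -1.19 with an SD of 0.86, kept its direction under each alternative run. The 27 genes called by limma became 0 without a floor (2174 at an unadjusted p under 0.05), 54 with the floor of 50, 0 without a trend (1483 unadjusted) and 0 to 0 with any 1 resistant line left out (765 to 2484 unadjusted), where the remaining lines and EBC-1 are assumed to vary alike. The count of HOX genes called was 0 under each of these. Elsewhere the cause was not tested. No paired analysis was possible because EBC-1 is 1 library and the groups share fewer than 2 replicate numbers. Depth limits the low members: 3 reads are 2.47 to 3.53 units.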
